A study of Mus musculus with 4 samples.

Results

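The genes described here are T-box transcription factors, with their Zeb1 peaks in mouse embryonic stem cells (mESC). The 10 members are T (Brachyury), Eomes, Tbx1, Tbx2, Tbx4, Tbx5, Tbx15, Tbx18, Tbx20 and Tbx21, taken as every peak to which the deposited list assigns one of these gene symbols. They held 23 of the 17435 peaks of the list and are 10 of the 12271 genes that it names. Chromatin immunoprecipitation followed by sequencing (ChIP-seq) recovers the DNA bound by a protein. The study made 3 libraries with an antibody against Zeb1, a zinc finger repressor of transcription, and 1 input library from chromatin without antibody.

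The cells were D3, an established mESC line grown without feeder cells and used at passages 5 to 8. All 4 libraries came from ground state medium (GS), which blocks MEK with PD0325901 (1 μM) and GSK-3 with CHIR99021 (3 μM) and adds leukemia inhibitory factor (20 ng/mL) to keep the cells naive. Formaldehyde at 1% fixed the chromatin, which was broken into fragments of about 200 bp, and each immunoprecipitation took 8 μg of the antibody. A single cell line limits the results to that line, and the identity of the cells could not be checked against marker genes here, since the list holds no expression. For each peak the list gives ChIP reads, input reads and enrichment, all of them means by its legend. The methods describe an average of the values that each sample had in the unified peak. In 11 of the 23 member peaks, however, the read values became whole, within 0.01, only after multiplication by 5 to 14, which is more than the 3 ChIP libraries, and there was 1 input library. How these divisors arose was not tested. Read levels, also per kb, are therefore the deposited means and not counts of a library. It holds no value per library, so no SD or test between libraries accompanies any value below, and neighbouring values in an order cannot be set against a replicate spread. By the study's methods, an equal number of reads per sample was drawn at random before mapping. The depth of each library after mapping is unknown from the list, which counts only reads within peaks. Enrichment is the authors' ratio of ChIP over input, corrected by them for mapped reads. Read levels are given per kb of peak where genes are compared.

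T-box factors share a DNA-binding domain, the T-box, and switch developmental programs on or off in a dose-sensitive way. In the early embryo T and Eomes direct the formation of mesoderm and definitive endoderm from pluripotent cells, and later members pattern the heart, the limbs, the pharynx and the immune system. Naive mESC have not yet started these programs.

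All 10 members had at least 1 assigned peak, where 53.3% of the 21000 protein-coding genes of the reference had one. A peak centre within 5 kb of the transcription start site (TSS) was listed for 9 of the 10, against 45.1% of protein-coding genes. The exception was Tbx5, and Tbx2 was counted through a peak centred 4985 bp from its TSS. At least 2 peaks were assigned to 8 members, against 14.1% of protein-coding genes, and at least 3 peaks to 4 members, against 4.59%. An assigned peak with an enrichment of 5 or more was present for 8 members, against 43.6% of protein-coding genes, and Eomes and Tbx5 lacked one. The members were chosen with earlier results of these data known, so these counts describe them and not the T-box family. Of the 7 T-box genes left out, 4 had an assigned peak. The list assigns a peak to the nearest TSS, so a gene with distant neighbours can collect more peaks. The stretch nearer to a member's TSS than to any other gene's had a median of 84.9 kb, against 42.6 kb over all protein-coding genes, and was above the latter value for 7 of the 10 members. Its part in the counts was not tested.

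The 23 peaks had a median enrichment of 7.90, against 6.50 over all peaks, and 16 of them lay above that list median. Their enrichment ran from 3.45 at Tbx5 to 13.7 at Tbx1. The members therefore sat in the body of the list, whose highest enrichment was 81.9. The highest peak of each member had a median percentile of 83.5 by enrichment among all peaks, and 8 of the 10 highest peaks exceeded the list median. Since 8 members had more than 1 peak to choose from, the highest peak of every protein-coding gene with a peak is the closer comparison, and against those the median percentile was 79.1. By ChIP reads per kb the same 10 peaks had a lower median percentile among all peaks, 64.6. The median ChIP level over the 23 peaks was 26.5 reads per kb, against 25.1 over all peaks, while the median input level was 6.33 reads per kb against 8.07.

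**Figure D1:**
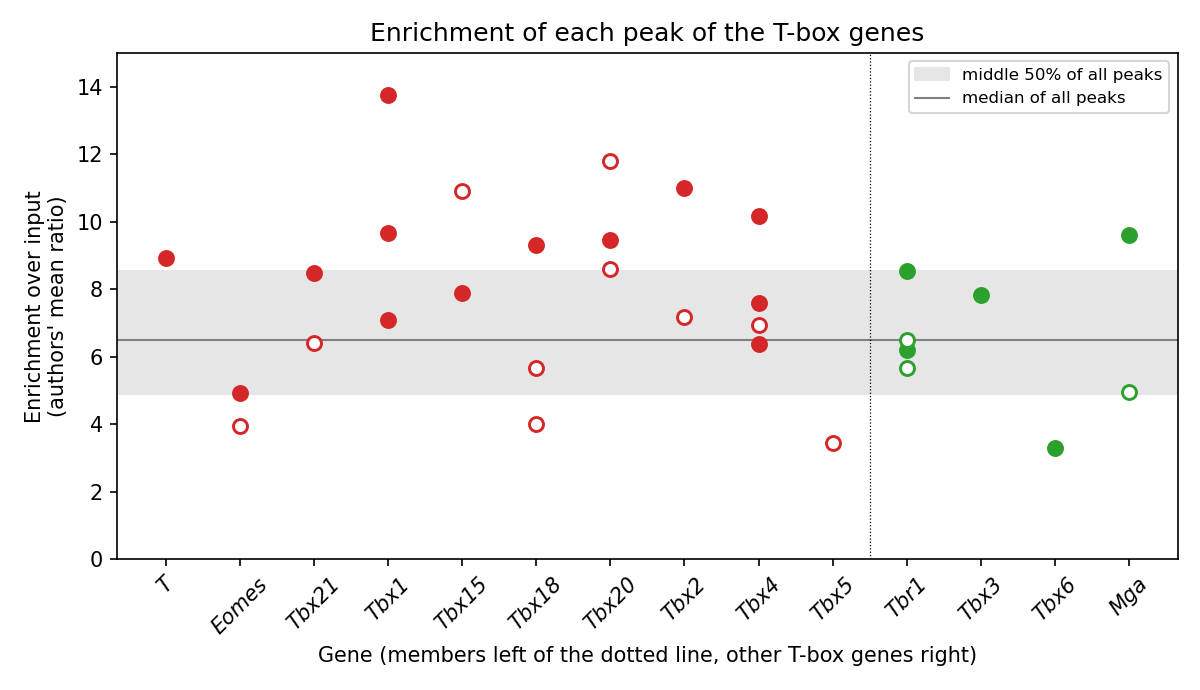
Enrichment over input (authors' mean ratio) of each peak of the 10 members and of the other T-box genes with a peak, 1 point per peak. Filled points lie within 5 kb of a TSS and open points beyond, the grey band spans the middle 50% of all peaks (4.91 to 8.53) and the line is their median, 6.50; Tbx1 reached 13.7, while both peaks of Eomes and the peak of Tbx5 stood below the line.

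**Figure D2:**
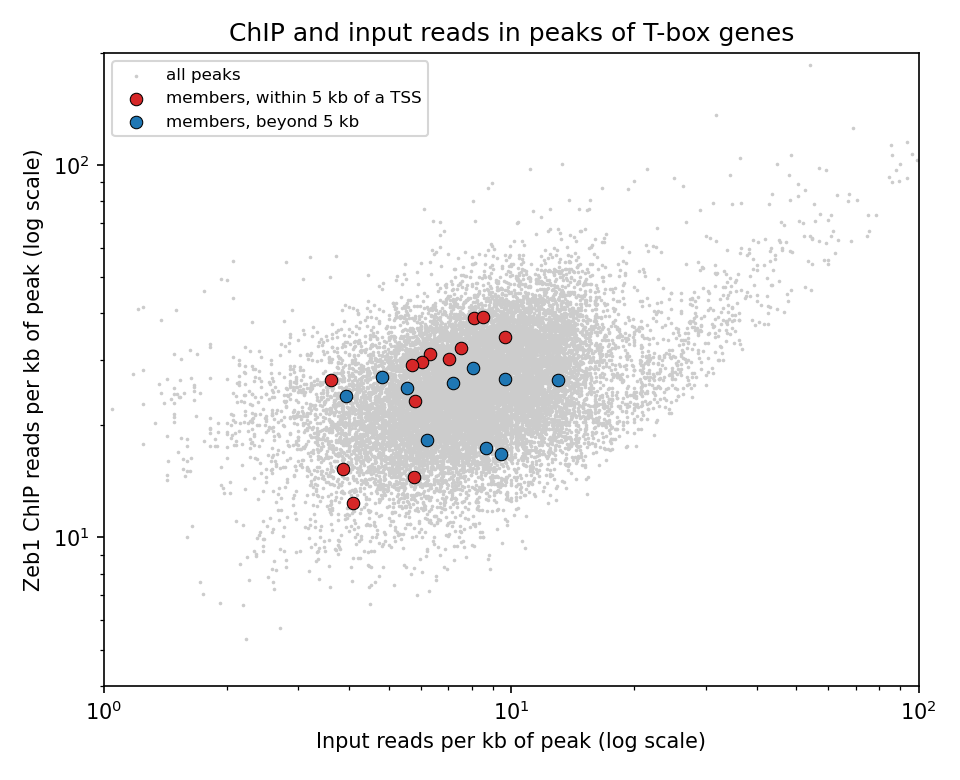
Zeb1 ChIP reads per kb against input reads per kb, both on log axes, for the 23 peaks of the members over all peaks of the list (29 of which lie outside the axes). The members fell among the other peaks, from 12.3 to 39.0 ChIP reads per kb.

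T, or Brachyury, founded the family and drives mesoderm formation and notochord development. It had 1 peak, at chr17:8432851-8435450 (mm10), which covered the TSS of the gene on the plus strand and had its centre 273 bp upstream. The peak held 78.3 ChIP reads and 18.3 input reads over 2600 bp, or 30.1 and 7.03 reads per kb. Its enrichment of 8.93 was above that of 78.4% of all peaks.

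The sequence of each peak was searched on both strands for the Zeb1 motif, ACCTG preceded by a C or T, any base, and another C or T. The T peak held 7 matches, the most among the members. Of 984 other peaks within 100 bp of its length, 3.05% held as many. The match closest to the TSS covered the bases 15 to 8 upstream of it, at chr17:8434408-8434415 on the minus strand. The 250 bases before the TSS are shown because this match lies at their end, 5′ to 3′ on the plus strand of GRCm38.p6 at chr17:8434173-8434422, with the match in capitals as it reads on that strand.
T promoter: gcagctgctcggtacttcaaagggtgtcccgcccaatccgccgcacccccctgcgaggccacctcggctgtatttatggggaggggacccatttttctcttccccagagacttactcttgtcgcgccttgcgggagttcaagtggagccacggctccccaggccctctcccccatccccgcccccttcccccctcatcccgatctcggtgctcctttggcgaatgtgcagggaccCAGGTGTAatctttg
A match to the motif was present in 14.3% of the 32851 promoter windows of the same length in the RefSeq table. Of the members, 7 of 10 had a window in that table, with none for Tbx2, Tbx5 and Tbx15. Among the windows of those 7 members, T alone held a match, a share close to that over all windows. The only Tbx4 window lay before the start of its shorter transcript, and not every start of Tbx1 had a window.

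Eomes starts the definitive endoderm and early cardiac mesoderm programs, and in the same subfamily Tbx21 (T-bet) directs type 1 helper T cells and Tbr1 acts in cortical neurons. The Eomes peak at chr9:118476251-118481150 was wide, at 4900 bp, and covered the TSS and the first coding exon. It held 71.3 ChIP reads and 28.2 input reads, or 14.5 and 5.76 reads per kb. The enrichment of 4.92 exceeded that of only 25.1% of all peaks. Eomes thus stood in the lower part of the list although its peak was long. A further Eomes peak lay 11261 bp downstream of the TSS, past the end of the gene and in a SINE element by the deposited annotation, with an enrichment of 3.95.

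The first Eomes peak held 4 matches to the Zeb1 motif, all downstream of the TSS, where 64.4% of 73 peaks of like length held as many. The closest was 339 bp downstream, in the 5′ UTR, and the others lay in exon 1 and intron 1. The same peak also held the T-box half-site TCACACCT, the core letters that T-box proteins recognize, 1709 bp upstream of the TSS. It is shown on the plus strand at chr9:118476462-118476491, with the half-site in capitals, because only 1 other peak of the members, that of Tbx5, held these letters.
Eomes half-site: gagattcagtcTCACACCTacatctccctc
The half-site followed by G contains a match to the Zeb1 motif, and 516 of the 17435 peaks held such overlapping matches. None of the 23 member peaks did. Over all member peaks the half-site was present in 8.70%, close to the mean of 9.19% among peaks of like length.

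Tbx21 had a peak over its TSS, at chr11:97113301-97115900, with 83.7 ChIP reads, 19.6 input reads and an enrichment of 8.47. This level was 32.2 ChIP reads per kb. A peak in the last exon, at chr11:97098351-97099700, reached 6.4. Neither Tbx21 peak held the Zeb1 motif, whereas 86.8% and 66.3% of peaks of their lengths did. The shorter E-box CACCTG, which the motif contains when the base before ACCTG is C, was present 3 times in the promoter peak and 2 times in the other. Tbr1, the remaining gene of the subfamily, had 4 peaks, from 5.66 to 8.56 in enrichment, and the highest lay 847 bp downstream of its TSS in the first coding exon.

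The peak of highest enrichment among the T-box genes was in the Tbx1 subfamily, although by ChIP reads per kb it exceeded only 57.1% of all peaks. Tbx1, which patterns the pharyngeal arches and the outflow tract of the heart, had 3 peaks within 5 kb of one of its start sites. The highest, at chr16:18585651-18589550, covered 2 curated TSSs of the gene on the minus strand. It held 103.5 ChIP reads and 14.1 input reads, and its enrichment of 13.7 exceeded that of 95.5% of all peaks. The input level there, 3.61 reads per kb, was the lowest of the 23 peaks, while the ChIP level was 26.5 reads per kb. A 2nd peak over the most upstream TSS, at chr16:18589801-18592500, had the higher ChIP level, 34.6 reads per kb, and the lower enrichment, 7.10. A 3rd peak in coding exon 7, at chr16:18580851-18583400, had an enrichment of 9.67 and the highest GC content of the members, 63.3%.

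The peak of highest enrichment held 2 matches to the motif, both in exon 1 of a curated transcript, 268 and 235 bp downstream of its TSS. They are shown in the motif's own direction, on the plus strand, with the match in capitals, at chr16:18588620-18588649 and chr16:18588653-18588682.
Tbx1, 268 bp: ccttgcttggcCCCACCTGcctccacctcc
Tbx1, 235 bp: ccggcggccccTGCACCTGggtaagagagc
Among peaks of like length 79.7% held 2 or more matches, so this peak was no richer in these letters than most peaks of its size.

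Tbx20, required for growth of the heart chambers, had its highest peak away from the promoter. That peak, at chr9:24780451-24781850, lay 6847 bp upstream of the TSS and had an enrichment of 11.8, above 92.1% of all peaks, from 33.5 ChIP reads and 5.50 input reads. With so few input reads, a small difference in the input count would move the ratio. The peak over the Tbx20 TSS, at chr9:24773251-24775000, held more reads, 51.0 against 10.0 in the input, and reached 9.45. A distal peak, 178472 bp upstream, had an enrichment of 8.60 and lay closer to the curated TSS of another gene in the reference. Of the 3 peaks only the one of highest enrichment held the Zeb1 motif, with 1 match. The promoter is shown as the counterpart to that of T, since a peak covers it and no match lies in it or in the rest of that peak. It runs 5′ to 3′ on the minus strand at chr9:24774304-24774553 (GRCm38.p6), in lower case throughout because no base was marked.
Tbx20 promoter: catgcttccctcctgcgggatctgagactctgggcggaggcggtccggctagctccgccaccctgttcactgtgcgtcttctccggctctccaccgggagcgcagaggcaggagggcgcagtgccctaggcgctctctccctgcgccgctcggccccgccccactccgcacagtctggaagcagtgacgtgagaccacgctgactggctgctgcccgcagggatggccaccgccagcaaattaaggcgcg
Its GC content was 68.8%, with 22 CpG dinucleotides, against 62.8% and 14 in the T promoter and a median GC content of 52.4% over all promoter windows.

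Tbx18, which acts in the sinus node, the epicardium and the somites, had 3 peaks. The peak over its TSS, at chr9:87728851-87731450, had 101.4 ChIP reads, 22.2 input reads and an enrichment of 9.30. Its ChIP level of 39.0 reads per kb was the highest of the 23 peaks, and its ratio of observed to expected CpG, 0.825, was also the highest. An upstream peak at chr9:87738601-87741400, centred 8740 bp from the TSS, reached only 5.67 but held 6 Zeb1 motif matches, a number met by 5.64% of peaks of like length. The most distant peak, 276765 bp upstream, lay in an L1 element by the deposited annotation and had an enrichment of 4.00.

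Tbx15, a paralog of Tbx18 with a role in the skeleton and in muscle and fat, had a peak over its TSS and one far away. The promoter peak, at chr3:99253101-99254650, had 36 ChIP reads, 9 input reads and an enrichment of 7.90, and held no Zeb1 motif. The distal peak, at chr3:99363851-99365200, lay 110765 bp downstream of the TSS, past the end of the gene and in an L1 element, and had the higher enrichment, 10.9, from 36.5 ChIP reads and 6.50 input reads. L1 copies are alike in sequence, and the deposited annotation placed 2483 peaks of the whole list in them. The study's methods kept only reads with a unique alignment, and the effect of that at such copies was not tested. Between the paralogs, the promoter peaks differed in ChIP level by 23.2 against 39.0 reads per kb. Tbx10 and Tbx22, the other genes of this subfamily, had no peak.

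Tbx2 and Tbx4 lie next to each other on chromosome 11, an arrangement shared with the pair Tbx3 and Tbx5 on chromosome 5. Tbx2 represses transcription in the heart and in other organs, and Tbx4 acts in the hind limb and the lung. From 5 kb before Tbx2 to 5 kb after Tbx4, a stretch of 93.5 kb held 7 peaks, or 7.49 per 100 kb, against 0.640 per 100 kb over the genome. Peaks covered 24.0% of that stretch. It was drawn around genes chosen with earlier results of these data known, and the genome value also covers regions without genes. The densities therefore describe unlike stretches. The corresponding stretch around Tbx3 and Tbx5 held 4 peaks in 224.4 kb, or 1.78 per 100 kb. Of these 4 peaks, 2 were assigned to other genes, as was 1 of the 7 around Tbx2 and Tbx4.

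Both peaks assigned to Tbx2 lay downstream of its TSS. The one at chr11:85836301-85838900, in intron 5, had an enrichment of 11 with 101.3 ChIP reads and 21.0 input reads. The other, at chr11:85840001-85845400 around the end of the gene, was the longest of the 23 at 5400 bp and had the most ChIP reads, 154.2, with an enrichment of 7.18. The longest peak held no Zeb1 motif match, although 98.4% of 62 peaks of like length did. The TSS of Tbx2 itself lay in a further peak, at chr11:85828601-85834050, which the list assigned to the antisense noncoding gene 2610027K06Rik. That peak had an enrichment of 6.50, equal to the list median, with 73.9 ChIP reads over 5450 bp and 4 motif matches. It was not counted among the 23.

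Tbx4 had 4 peaks, the most of any member, with enrichments of 6.39, 6.95, 7.60 and 10.2. The highest, at chr11:85885351-85887150, was listed 3813 bp upstream of the TSS. In the reference used here the centre of that peak lay 117 bp upstream of a curated TSS of Tbx4, which the peak covered. The peak at the start used by the list, at chr11:85887801-85891550, fell in intron 1 by the reference and had the lowest ChIP level of the members, 12.3 reads per kb, with 5 motif matches. The peak at chr11:85894651-85896850 covered the start of the shorter transcript and had the lowest CpG ratio of the members, 0.338. The Tbx4 peak of highest enrichment held neither the Zeb1 motif nor the E-box.

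Tbx5, the paralog of Tbx4, acts in the forelimb and in the heart chambers and conduction system. Its only peak, at chr5:119802751-119805400, lay 30588 bp upstream of the TSS. It had 44.5 ChIP reads, 25 input reads and an enrichment of 3.45, with only 7.74% of all peaks lower. By the reference it was closer to the TSS of another gene. No peak covered a curated TSS of Tbx5, which made it the only member of the 10 without one. Tbx3, which helps to maintain naive mESC, had 1 peak over its start sites, 5200 bp long, with 147.2 ChIP reads, 38.2 input reads and an enrichment of 7.82.

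**Figure D3:**
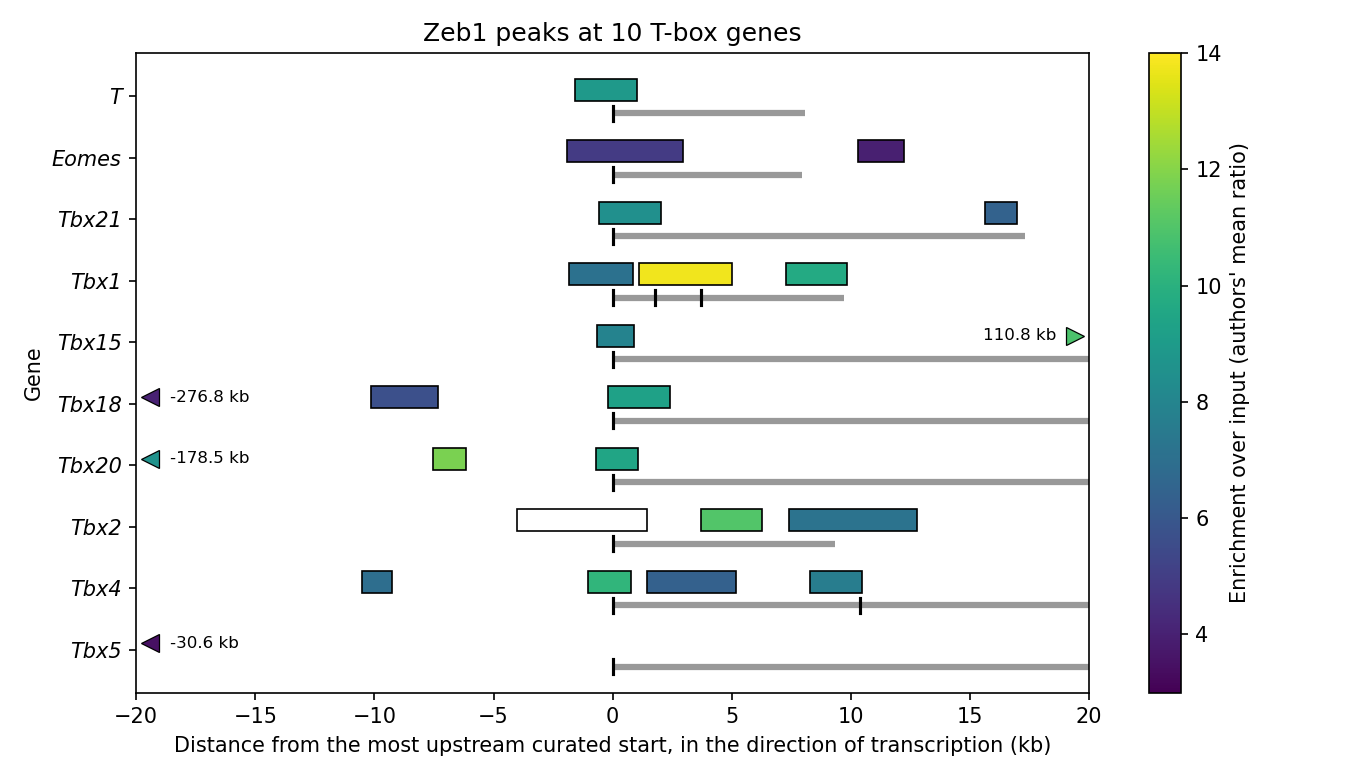
Peaks (boxes, coloured by enrichment) at each member, in kb from its most upstream curated start and in the direction of transcription; grey bars are genes, black ticks are curated start sites, and arrowheads stand for peaks beyond 20 kb with their distance. The white box at Tbx2 is the peak assigned to the antisense gene; the map uses the start sites of the reference, so the Tbx4 box at 0 is the peak listed 3813 bp upstream.

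The peaks fell both on promoters and away from them. Of the 23, 10 covered a curated TSS of their own gene and 13 had their centre within 5 kb of a listed TSS, a share of 56.5% against 61.4% over all peaks. The 13 proximal peaks had a median enrichment of 8.93, against 6.74 for all proximal peaks of the list, and the 10 distal ones 6.68 against 6. By the deposited annotation 3 of the distal peaks lay in retrotransposons, namely 1 each of Eomes, Tbx15 and Tbx18, a share of 30% against 42.5% of all distal peaks. The highest peak was proximal in 7 members.

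The Zeb1 motif was less frequent in these peaks than in the list. At least 1 match was present in 12 of the 23, or 52.2%, against 76.8% of all peaks and a mean of 80.3% among peaks within 100 bp of the same length. The proximal peaks held it in 69.2% and the distal ones in 30%, where all proximal and distal peaks of the list had 76.8% each. On the forward strand alone the shares were closer, 43.5% of the members' peaks against 54.4% of all peaks. The E-box was present in 69.6% of the members' peaks, against 82.1% of all peaks. Within 200 bp at the centre of the peak no member peak held the motif, against 16.6% of all peaks. These shares describe 23 peaks of 10 genes and were not tested. A match is a description of letters, and its absence draws nothing about the factor.

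**Figure D4:**
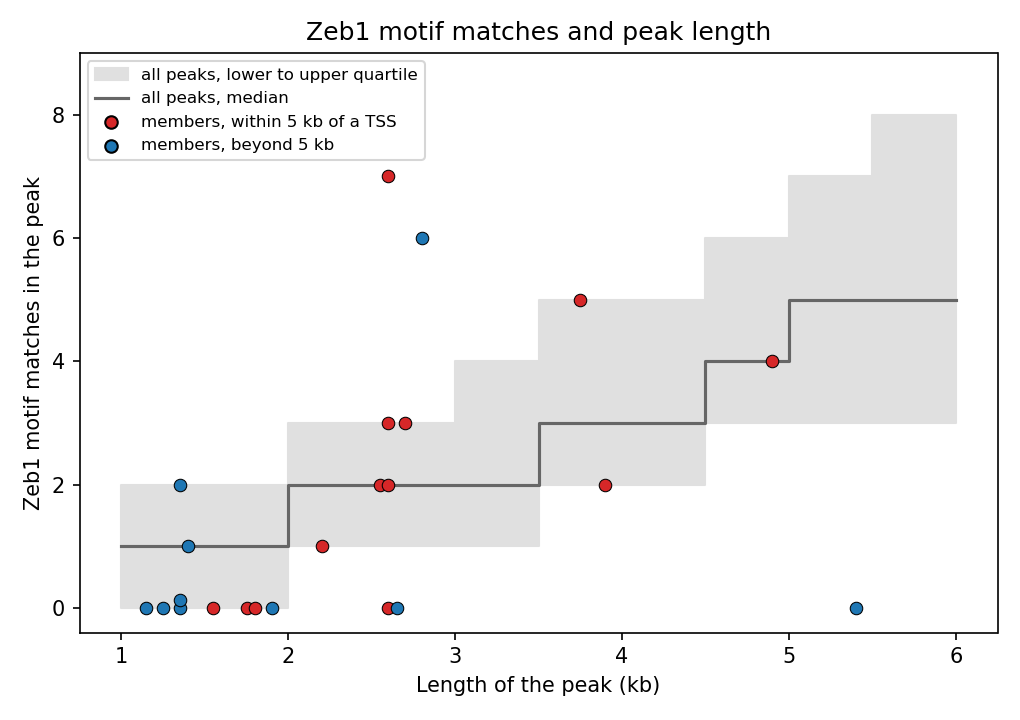
Number of Zeb1 motif matches in each of the 23 peaks against the length of the peak in kb, over the median (line) and the quartiles (band) of all peaks in 500 bp classes of length; coinciding points are shifted slightly upwards. The T peak (7 matches) and the upstream Tbx18 peak (6) stood above the band, and the 5400 bp Tbx2 peak, the Tbx21 promoter peak and the Tbx5 peak (0 each) below it.

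The 38 matches in the members' peaks used 15 different words of 8 bases. The word shared by most members was CACACCTG, with 1 match each in T, Eomes, Tbx1, Tbx15, Tbx18 and Tbx20. It was present in 26.1% of the members' peaks, against a mean of 20.3% of peaks of like length. It is shown for 5 of these genes to let the flanks be compared, read in the direction of the motif, with the shared word in capitals. The matches lay 631 bp upstream of the T start (chr17:8433774-8433803, plus strand), in intron 1 of Eomes (chr9:118479651-118479680, plus), in the last exon of Tbx1 (chr16:18581455-18581484, minus), 7495 bp upstream of Tbx18 (chr9:87738744-87738773, plus) and 6580 bp upstream of Tbx20 (chr9:24780872-24780901, plus).
T: cccaaagctgcCACACCTGgggaggctgag
Eomes: acttcctaaggCACACCTGtagcttgggct
Tbx1: cttcagctcacCACACCTGcagctgcgggt
Tbx18: cgatgaggttcCACACCTGaaattaaaaat
Tbx20: ggcaggttgtaCACACCTGctcttcctccc
The word was singled out after the matches had been seen, and it was described without a test.

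Taken over full peak length, the base composition of the 23 peaks was close to that of the list. Their median GC content was 56.2%, against 55.5% over all peaks, and ran from 44.4% in the distant Tbx18 peak to 63.3% in exon 7 of Tbx1. The median ratio of observed to expected CpG was 0.564 against 0.538. Set against peaks of like length, 14 of the 23 were above the median GC content and 16 above the median CpG ratio.

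**Figure D5:**
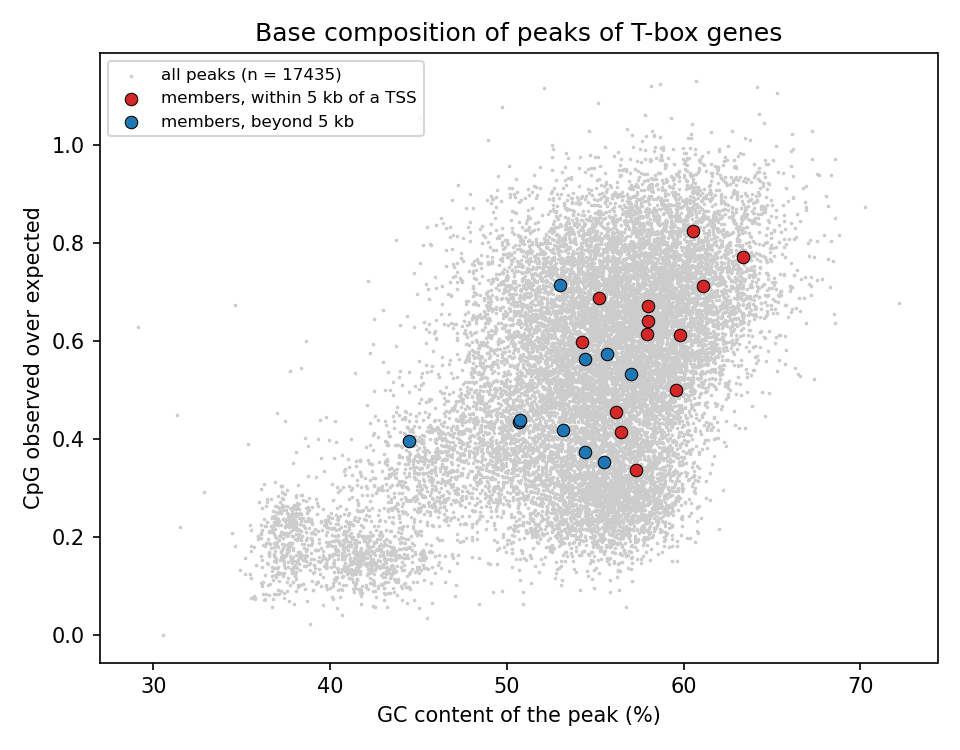
GC content (%) against the ratio of observed to expected CpG for the 23 peaks of the members over all peaks of the list. Proximal peaks of the members had a median of 58.0% GC and distal ones 53.8%. The lowest value of the members was 44.4%, and that of the list 29.1%.

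Of the 7 remaining T-box genes, 4 had an assigned peak, a share near the 53.3% over all protein-coding genes. These were Tbr1, Tbx3, Tbx6 and Mga, and each had one at most 5 kb from its TSS. Tbx6, needed for presomitic mesoderm, had 1 peak over its promoter with an enrichment of 3.30, the lowest of all T-box genes. Mga, a partner of Max that also carries a T-box, had 2 peaks, and the one at its TSS reached 9.61. Tbx10, Tbx19 and Tbx22 had none.

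Genes around the T-box factors in development were taken as a list of 17, and 11 of them had an assigned peak, all with one within 5 kb of the TSS. Over all protein-coding genes 53.3% had a peak and 45.1% had one within 5 kb, so the count for this list, and the smaller ones for its parts, are given as a description. Of the 6 signals that act upstream in the gastrulating embryo, 5 had a peak. Wnt3, whose loss leaves the embryo without mesoderm, and Wnt3a, which maintains T in the tail bud, had 3 peaks each, with their highest enrichments at 7.80 and 6.83. Nodal had 1 peak with an enrichment of 9.29 and 6 Zeb1 motif matches. Fgf4 and Fgf8 reached 6.10 and 8.98, and Bmp4 had no peak. The 10 peaks of these signals had a median enrichment of 6.78, against 7.90 for the members, and all 10 held the Zeb1 motif, against a mean of 84.5% of peaks of like length.

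Each of the 4 other transcription factors of the list, which act together with T-box genes in the heart, the limb or the early embryo, had a peak. Gata4 and Nkx2-5, cofactors of Tbx5 and Tbx20 in the heart, had 3 and 4 peaks with highest enrichments of 12.0 and 8.69. Mixl1, an early mesendodermal homeobox gene, reached 6.74. Pitx1, which lies upstream of Tbx4 in the hind limb, had a peak in its 3′ UTR with an enrichment of 19.8, above 98.7% of all peaks and above every T-box gene. Of 7 targets 2 had a peak, Mesp1 at 8.17 and Dll1 at 9.84, both over the promoter, while Msgn1, Nppa, Gja5, Fgf10 and Ifng had none.

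Gaps to peaks of other genes were measured outward from the outermost assigned peaks of a member, leaving out any peak between them. The smaller gap of a member ran from 2.25 kb at Tbx2, next to the antisense gene, to 422.7 kb at Tbx15. Near Eomes the next peak was that of Golga4 at 15.1 kb, with an enrichment of 5.90, above both Eomes peaks. Next to Tbx1 stood a Gp1bb peak at 18.8 kb with 9.02, and next to Tbx21 a Mir7235 peak at 22.2 kb with 6.86. For Tbx18, Tbx15, Tbx5 and Tbx4, by contrast, the larger gaps were 583.7, 538.7, 496.4 and 459.9 kb. They ended at peaks of Mrap2, Spag17, Lhx5 and Med13. A gap can take in the gene itself, as at Tbx5, whose only peak lay upstream. The T peak lay between those of Prr18, 90.4 kb away with 9.06, and Pde10a, 88.5 kb away with 7.35.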

How the data were processed

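The Ion Torrent libraries were planned at a minimum of 20 M raw reads. Per the submitters' processing notes, FastQC 0.11.2, STAR 2.4.2a, Picard 1.136, DESeq and HOMER 4.7 were named, with mm10. The authors called peaks against input and kept unified peaks of at least 2 ChIP libraries. The deposited read values are a signal, namely mean reads in a peak for ChIP and for input, described in the authors' methods as averaged over samples. The deposited enrichment is a ratio of ChIP over input, averaged by the authors. The deposited p-value was 0 in every peak and was not used. The legend of the deposited list calls positive distances to the TSS upstream, but 14120 of 14126 that matched the reference were positive downstream, so distances were read in that way. The ratio of a peak cannot be recomputed from its 2 mean read values.

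Sequence and curated transcripts came from RefSeq GRCm38.p6, the assembly of mm10. Background genes were matched by Entrez ID, and 11190 of the 12271 genes of the list were protein-coding genes of the reference. Motif searches and percentiles ran in Python 3.11.15 with pandas 2.3.3, SciPy 1.17.1, pysam 0.24.0, NumPy 2.4.6 and matplotlib 3.10.9, and were tested on simulated data. Peaks of like length were within 100 bp. The members and gene lists were chosen with earlier results of these data known. Named genes were the members, the other T-box genes, lists of upstream signals, partners and targets, genes of peaks overlapping a member within 5 kb, and neighbouring genes with a peak. No test was run.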

Additional observations from a re-analysis of the deposited data

How the results depend on the processing

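Of 31 alternatives to 8 results, 23 stayed within 1.5 times for counts, 10% for medians or the 95% Wilson interval for shares. The 10 members with a peak became 8 at an enrichment of 5 or more, and 9 by any assignment through the reference, where Tbx5 was lost. The 23 peaks became 17 to 21. Taking each member's highest peak moved the median enrichment to 9.74, and ranking by ChIP reads per kb moved the median percentile to 71.1 where the highest peak was chosen again on that scale, which changed it for 3 members, and to 64.6 for the peaks of highest enrichment, an alternative chosen after seeing the data. Within 200 bp at the peak centre the share with the Zeb1 motif was 0% and that with the T-box half-site 0% (0.430% of all peaks). The median GC content there was 64.0%, against 56.2% over the full length of the members' peaks. It stands without a value of all peaks for that window, so it cannot be set against the list. The half-site share was 56.5% for the core TCACAC (60.4% of all peaks) and 0% at an enrichment of 5 or more (8.00% of all such peaks), since the peaks of Eomes and Tbx5 fall below it; the causes of the other shifts were not tested. Leaving out the 3 peaks in retrotransposons, likewise chosen after seeing the data, gave 20 peaks and a median enrichment of 8.19. No paired analysis was possible because the list holds means with no value per library, and leaving out each library in turn could not be run for the same reason. Depth after mapping and the FDR of each peak are unknown from the list, although the study's methods set an upper limit on the FDR.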
